A study of Mus musculus with 6 samples.

Results

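The genes described are 10 factors of DNA methylation, imprint maintenance and linked chromatin marks: Dnmt1, Dnmt3a, Dnmt3b, Tet1, Tet2, Tet3, Zfp57, Trim28, Ctcf and Ezh2. They were chosen by gene symbol, and every probe set annotated to them was kept whatever its level, which gave 23 probe sets of 45037 and 10 of 18193 named genes. A probe set is a group of short array probes for 1 or more transcripts, and its value is a log2 signal, so a difference of 1 is a doubling. RNA from immortalized mouse embryonic fibroblasts (connective tissue cells from embryos, grown in culture) was measured on 6 Affymetrix arrays to find genes that depend on the related histone acetyltransferases PCAF and GCN5. All cells, the comparison group included, were PCAF-/-, and they were GCN5+/- on 3 arrays and GCN5-/- on 3. Per the study design, cells carrying a conditional GCN5 allele received a retrovirus with vector alone or with Cre recombinase, which removes the conditional part of the gene, and the cells were selected in puromycin. The array labels name no virus, and the design text gives 1 genotype, GCN5+/-, to both kinds of infected cell. Groups therefore follow the array labels, and genotype and virus cannot be told apart. Each genotype had 2 RNAs of line A (arrays A1 and A2) and 1 RNA of line B (array B), which was immortalized independently. With only 2 lines, and line A measured in duplicate, the p-values partly reflect technical spread. In bulk RNA, fewer cells of a kind and less RNA per cell cannot be told apart.

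DNA methylation in mammals sits mainly on cytosines of CG dinucleotides. DNMT1 copies it to the new strand at replication, DNMT3A and DNMT3B place it anew, and the TET dioxygenases oxidize it as a step towards its removal. At imprinted regions ZFP57 and TRIM28 keep the mark of one parent through early development, CTCF binds the unmethylated copy of some of these regions, and EZH2, the catalytic subunit of PRC2, writes a repressive mark on histone H3.

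All 10 genes had a start site in the RefSeq promoter table, with 16 windows among them. The windows of Dnmt3a and Tet1 are printed because these genes held the largest genotype differences among the 23 probe sets. The 250 bases upstream of the start are given 5′ to 3′ on the gene's strand, from RefSeq on GRCm38.p6, with the dinucleotide CG, the target of these enzymes, in capitals. For Dnmt3a the most upstream of 3 windows lies at chr12:3806730-3806979 on the plus strand, and for Tet1 the only window lies at chr10:62887325-62887574 on the minus strand.
Dnmt3a: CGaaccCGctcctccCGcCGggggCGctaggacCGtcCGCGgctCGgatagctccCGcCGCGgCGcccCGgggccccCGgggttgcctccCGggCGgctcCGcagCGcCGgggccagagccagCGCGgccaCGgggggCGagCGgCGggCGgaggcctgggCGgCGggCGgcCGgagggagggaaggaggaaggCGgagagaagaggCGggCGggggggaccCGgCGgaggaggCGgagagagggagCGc
Tet1: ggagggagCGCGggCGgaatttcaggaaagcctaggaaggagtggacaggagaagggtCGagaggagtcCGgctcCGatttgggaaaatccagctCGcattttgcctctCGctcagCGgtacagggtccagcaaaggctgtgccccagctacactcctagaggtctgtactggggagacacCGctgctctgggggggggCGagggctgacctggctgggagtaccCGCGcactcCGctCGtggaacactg
The motif searched was CG, which reads the same on both strands. The Dnmt3a window held 38 and the Tet1 window 15. Among 32851 promoter windows of this length the median was 6, with quartiles of 2 and 16. As many as 38 were found in 1.88% of them and as many as 15 in 27.3%. The single window of Tet2 held 51, a count reached by 0.067% of windows, and that of Ctcf held 40 (1.31%). The windows of Ezh2, Dnmt3b, Tet3 and Trim28 held 23, 21, 17 and 17. Counts varied by start site for Dnmt3a, whose other windows held 40 and 15, for Dnmt1 (26, 7 and 2) and for Zfp57 (7, 6 and 3). No methylation was measured on these arrays, and the counts describe the reference sequence only.

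The labels were checked on the deleted gene. Kat2a, which encodes GCN5, fell by 2.44 ± 0.36 (SE) on probe set 1422972_s_at, from 10.30 ± 1.12 to 7.86 ± 0.11 (SD, n = 3 arrays per genotype), and by 0.75 ± 0.13 on 1422971_at (limma adjusted p 0.00823 and 0.019). On 1422972_s_at the differences in pairs A1, A2 and B were unequal, at -1.35, -2.22 and -3.76. The third Kat2a probe set, 1426783_at, differed by 0.18 ± 0.16 (adjusted p 0.67). On it GCN5-/- cells read higher in pairs A1 and A2 (0.56 and 0.38; 0.47 within line A, adjusted p 0.0262) and lower in pair B (-0.41), and the difference between lines did not pass the test (adjusted p 0.146). The place of each probe set relative to the deleted part is not analysed here. The 3 probe sets of Kat2b, which encodes PCAF, did not pass the test between genotypes, with adjusted p of 0.576, 0.762 and 0.999. All 3 lay below the 40th percentile of mean signal. Line B minus line A was -0.69 ± 0.15 on Kat2b 1434037_s_at (SE; limma adjusted p 0.0143), and its other probe sets did not pass between the lines. Array medians lay between 7.40 and 7.45. Of 11 fibroblast markers, all were at or above the 40th percentile of mean signal. Of these, 3 fell in GCN5-/- cells (Col1a1, Pdgfrb and Dcn), beside 2.79% of all genes by 1 probe set each, with a list median of -0.32. Between the lines 7 were called, 3 with more and 4 with less signal in B, beside 14.1% of all probe sets. That share is over every probe set, while the markers were read by 1 probe set per gene, so the bases differ. Of 31 markers of leukocytes, epithelium, endothelium, stem and germ cells and neural cells, 16 lay below that percentile. Of the 31, 1 rose (Cd53, by 0.85) and 1 fell (Sox2, by 0.44, at a mean log2 signal of 4.64), beside 3.18% and 2.79% of all genes. The part of these shifts in the results below was not tested.

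Between the genotypes, 1 of the 23 probe sets changed, a Tet1 probe set that fell by 0.76. That is 4.35% of them, beside 4.47% of all 45037 probe sets at a limma adjusted p under 0.05, so the share called was near that of the whole array (2.24% higher and 2.23% lower). The 3 Dnmt1 probe sets read higher and the 5 Dnmt3a probe sets lower in GCN5-/- cells in all 3 matched pairs, without passing the test. The groups did not overlap for 4 of the 23 probe sets (17.4%, beside 14.0% of all), 1 of them higher and 3 lower in GCN5-/- cells (6.95% and 7.01% of all). An unadjusted p under 0.05 was reached by 6 of 23 (26.1%, beside 17.5% of all): 3 of Dnmt3a, 2 of Dnmt1 and 1 of Tet1. The sign was the same in all 3 pairs for 16 of 23 (69.6%, beside 40.9% of all), 4 higher and 12 lower (20.3% and 20.6% of all). Probe sets of 1 gene share their transcript, so these counts are not of independent units. The median difference was -0.08, beside 0.00 over all probe sets, and the median absolute difference was 0.174, beside 0.0965. All 23 intervals of 95% lay between -1 and 1, that is within a doubling or its inverse, as did 98.0% of those of all probe sets.

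**Figure D1:**
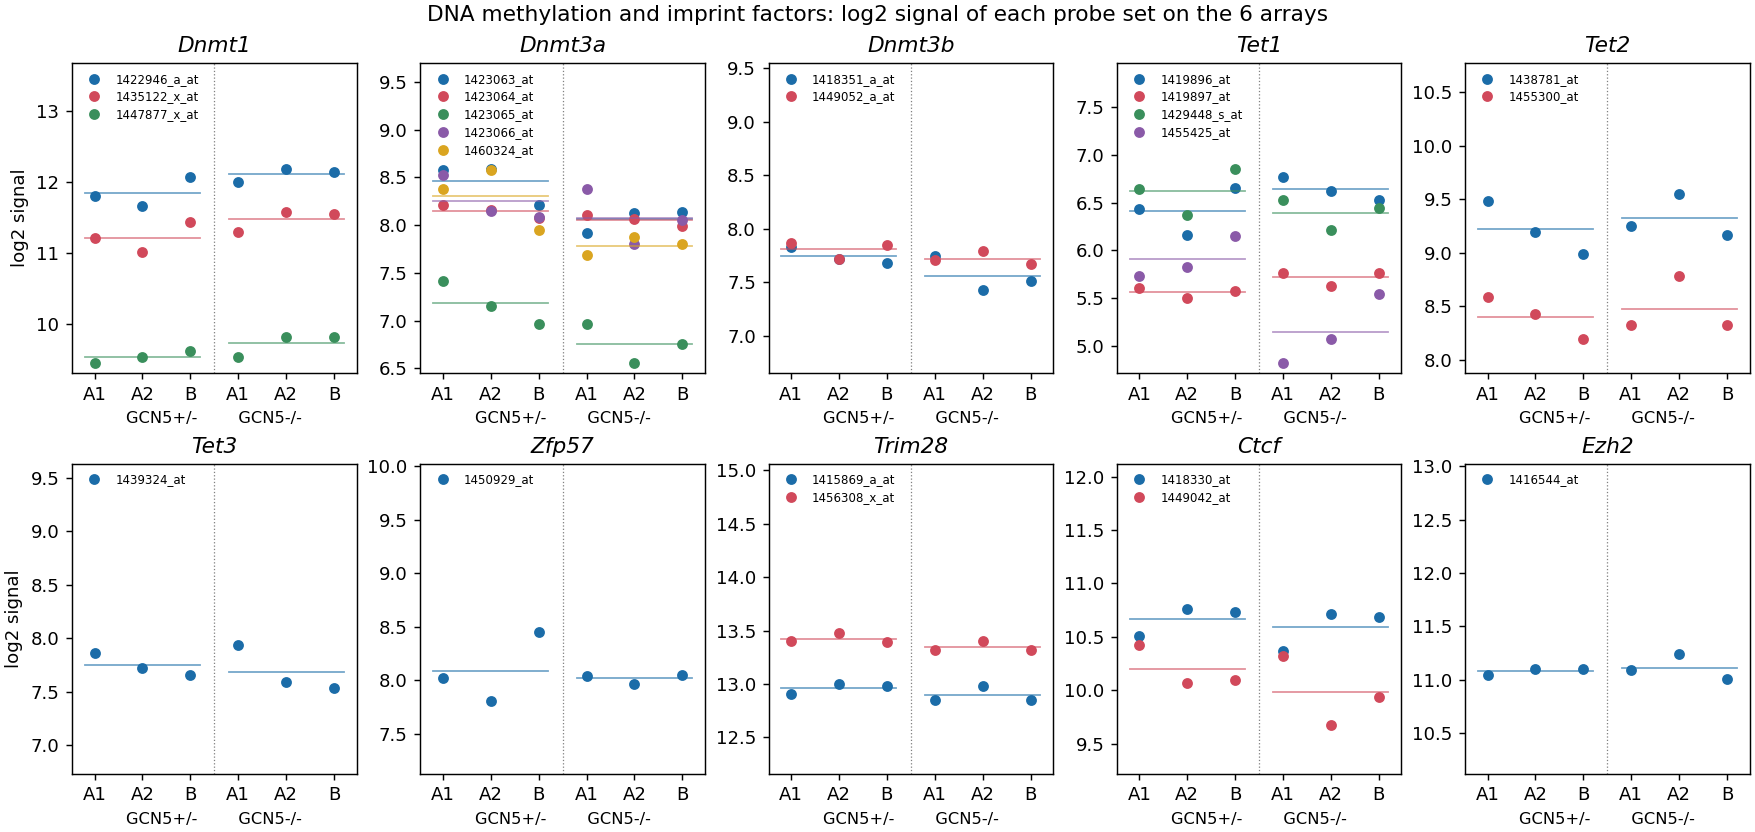
Log2 signal (vertical axis) of every probe set of the 10 genes on the 6 arrays (horizontal axis, replicates A1, A2 and B of each genotype), with 1 colour per probe set and a short line at each group mean of 3 arrays. The called Tet1 probe set, 1455425_at, read 5.73 to 6.15 in GCN5+/- and 4.82 to 5.54 in GCN5-/- cells, and the Dnmt3a probe sets 1460324_at and 1423063_at also did not overlap.

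Dnmt1, the maintenance methyltransferase, read higher in GCN5-/- cells on all 3 of its probe sets, by 0.19 to 0.26, and did not pass the test. On 1422946_a_at replicates A1, A2 and B read 11.80, 11.66 and 12.07 in GCN5+/- and 12.00, 12.18 and 12.14 in GCN5-/- cells. Line B was already high in GCN5+/- cells, and its value there lay above the lowest GCN5-/- array, so the groups overlapped. The difference was 0.26 ± 0.09 (SE; 95% interval 0.06 to 0.46; limma adjusted p 0.156), with 0.19, 0.52 and 0.07 in pairs A1, A2 and B. Probe set 1435122_x_at differed by 0.26 ± 0.10 (adjusted p 0.222) and 1447877_x_at by 0.19 ± 0.10 (adjusted p 0.412). Pair A2 held the largest difference on each of the 3, and without the GCN5-/- array A2 the differences were 0.18, 0.16 and 0.11.

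None of 6 partners of maintenance methylation passed the test, and their median difference was 0.08. Uhrf1, which brings DNMT1 to hemimethylated CG sites, differed by 0.10 ± 0.07 (adjusted p 0.53). Pcna, the replication clamp that DNMT1 binds, differed by 0.14 ± 0.04 (adjusted p 0.127), Hells, a remodeller needed for DNA methylation, by 0.21 ± 0.09 (adjusted p 0.265), and Uhrf2, a relative of Uhrf1, by -0.22 ± 0.07 (adjusted p 0.136). DNMT1 acts at replication, so 14 genes of S phase and proliferation were read beside it. Of these, 5 rose and none fell, with a median of 0.18; over all 18193 genes, read the same way by the probe set of highest mean signal, 3.18% rose and 2.79% fell, with a median of 0.01. Those that rose were the replicative helicase subunits Mcm3, Mcm5 and Mcm6 by 0.35 ± 0.07, 0.40 ± 0.07 and 0.36 ± 0.06, the cyclin Ccne1 by 0.42 ± 0.09 and the origin licensing factor Cdt1 by 0.34 ± 0.08 (limma adjusted p from 0.0105 for Mcm6 to 0.0424 for Cdt1). In pair B alone Mcm3, Mcm5, Mcm6, Ccne1 and Cdt1 rose by 0.21, 0.35, 0.29, 0.21 and 0.13. For Mcm5 and Cdt1 the genotypes overlapped, and line B was higher than line A by 0.55 ± 0.07 and 0.74 ± 0.08. Other probe sets of these genes were not all called: Ccne1 1416492_at had an adjusted p of 0.058, Cdt1 1424144_at and 1455791_at 0.0758 and 0.83, Mcm3 1426653_at and 1420029_at 0.0618 and 0.577, Mcm5 1459658_at 0.508 and Mcm6 1447756_x_at 0.0576. The proliferation marker Mki67 differed by -0.17 ± 0.11 (adjusted p 0.537) and the cyclin Ccna2 by -0.07 ± 0.07 (adjusted p 0.723). Whether the S phase genes have a part in the Dnmt1 values was not tested.

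Dnmt3a, a de novo methyltransferase, read lower in GCN5-/- cells in every pair on all 5 probe sets, by 0.09 to 0.51, and none passed the test over the 6 arrays. Probe set 1460324_at read 8.38, 8.57 and 7.95 on GCN5+/- arrays A1, A2, B and 7.68, 7.88 and 7.80 on the GCN5-/- arrays. All GCN5+/- arrays were above all GCN5-/- arrays, and the gap was wide in line A and narrow in line B. The difference was -0.51 ± 0.14 (SE; 95% interval -0.83 to -0.20; limma adjusted p 0.0782), with -0.70, -0.70 and -0.15 in the pairs. On 1423063_at the arrays read 8.58, 8.59 and 8.21 against 7.92, 8.12 and 8.14, again without overlap and with a narrow gap in line B. That difference was -0.40 ± 0.13 (adjusted p 0.134), with -0.66, -0.46 and -0.07 in the pairs.

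The other 3 Dnmt3a probe sets overlapped between genotypes. Probe set 1423065_at differed by -0.42 ± 0.14 (adjusted p 0.145), 1423064_at by -0.09 ± 0.09 (adjusted p 0.714) and 1423066_at by -0.17 ± 0.17 (adjusted p 0.695). The probe sets of this gene thus did not give 1 size of difference. Without either line B array, or with the 4 line A arrays alone, 1460324_at was called, at -0.70 (limma adjusted p from 0.03 to 0.0306). These fits all take the difference from the same 4 line A arrays, so they are not separate checks. The difference between the lines in the genotype effect was 0.55 ± 0.25 for this probe set and did not pass the test (adjusted p 0.818).

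Dnmt3b, the other de novo methyltransferase, differed by -0.18 ± 0.11 on 1418351_a_at (95% interval -0.44 to 0.07; adjusted p 0.485) and by -0.09 ± 0.10 on 1449052_a_at (-0.32 to 0.14; adjusted p 0.746). Its arrays read 7.68 to 7.83 in GCN5+/- and 7.43 to 7.74 in GCN5-/- cells on the first, and 7.72 to 7.87 and 7.67 to 7.79 on the second. Of 4 de novo partners none passed the test, with a median of -0.08. Setd2, whose histone mark recruits the de novo enzymes to gene bodies, differed by -0.18 ± 0.11 (adjusted p 0.486), and Dnmt3l, their cofactor in germ cells, by -0.04 ± 0.11 (adjusted p 0.93) at a mean signal below the 40th percentile.

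**Figure D2:**
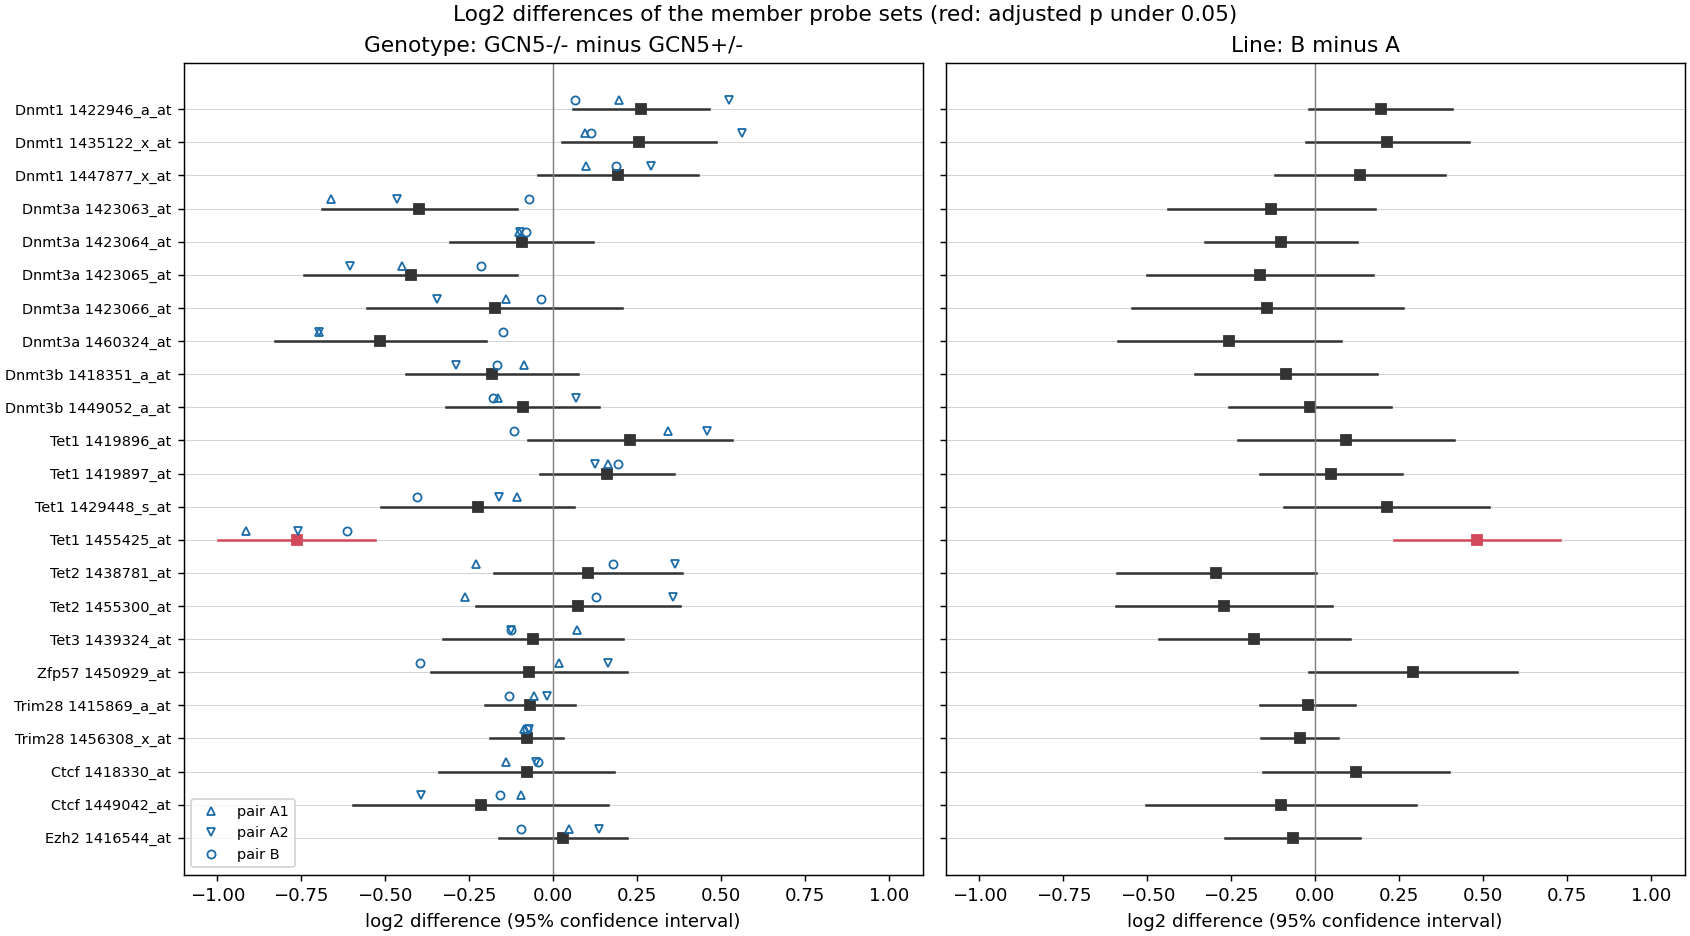
Log2 differences (horizontal axes) of the 23 probe sets (vertical axis), for genotype at left and line at right, as fitted values (squares) with 95% confidence intervals (bars) and, at left, the difference in each matched pair (open blue marks); red marks an adjusted p under 0.05. Tet1 1455425_at is the only red entry in either panel, at -0.76 for genotype and 0.48 for line.

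Tet1, which oxidizes methylated cytosine, gave the only called probe set, and its 4 probe sets did not all read in one direction. Probe set 1455425_at read 5.73, 5.83 and 6.15 on GCN5+/- arrays A1, A2, B and 4.82, 5.07 and 5.54 on the GCN5-/- arrays. In both genotypes line B was highest, and every GCN5-/- array lay below every GCN5+/- array. The signal fell by 0.76 ± 0.10 (SE; 95% interval -0.996 to -0.53; limma adjusted p 0.00556), lower in 3 of 3 pairs by -0.92, -0.76 and -0.61. These are weak signals: the mean of this probe set lay at the 20.0th percentile of all probe sets, and all 4 Tet1 probe sets lay below the 40th.

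The other Tet1 probe sets read otherwise. On 1419897_at the arrays read 5.60, 5.50 and 5.57 in GCN5+/- and 5.77, 5.62 and 5.77 in GCN5-/- cells, higher without overlap by 0.16 ± 0.09 (adjusted p 0.415). Probe set 1419896_at differed by 0.23 ± 0.13 (adjusted p 0.453) and 1429448_s_at by -0.22 ± 0.13 (adjusted p 0.429). Averaged over the 4 probe sets, a calculation added after the data were seen, Tet1 differed by -0.15 (limma adjusted p 0.330), and none of the 10 genes was called, beside 7.31% of 18193 genes. The call of 1455425_at also ended when the line term was left out (adjusted p 0.332), when line was a random block (0.112), and when values under 6 were set to 6 (-0.05, adjusted p 0.663). Only GCN5+/- array B read above 6 on this probe set. The floor thus removes most of the difference by its setting and cannot test it.

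Tet2 and Tet3, the other TET enzymes, did not pass the test. Tet2 differed by 0.10 ± 0.12 on 1438781_at (95% interval -0.18 to 0.38; adjusted p 0.769) and by 0.07 ± 0.13 on 1455300_at (-0.23 to 0.38; adjusted p 0.861). On both, pair A1 was lower and pairs A2 and B were higher in GCN5-/- cells. Tet3 differed by -0.06 ± 0.12 (-0.33 to 0.21; adjusted p 0.873), with 7.86, 7.72 and 7.66 in GCN5+/- and 7.93, 7.59 and 7.53 in GCN5-/- cells.

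Among 8 other genes of demethylation and TET function, 2 fell, beside 2.79% of all genes, and none rose, with a median of 0.01. TET enzymes need alpha-ketoglutarate, which the isocitrate dehydrogenases Idh1 (cytosol) and Idh2 (mitochondria) make. Idh1 fell by 0.78 ± 0.11 on 1422433_s_at, from 12.37 ± 0.21 to 11.60 ± 0.12 (SD, n = 3; limma adjusted p 0.00577), and by 0.80 ± 0.11 on 1419821_s_at (adjusted p 0.0074). Idh2 fell by 0.40 ± 0.07 on 1450048_a_at, from 12.55 ± 0.15 to 12.15 ± 0.28 (adjusted p 0.0135), while its weaker probe set 1453601_at differed by -0.18 ± 0.11 (adjusted p 0.504). The base excision glycosylases Smug1 and Mbd4 differed by 0.30 ± 0.10 and 0.12 ± 0.11 (adjusted p 0.138 and 0.654). The metabolite itself was not measured.

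Zfp57, the zinc finger protein that binds the methylated imprinted copy, was measured by 1 probe set and differed by -0.07 ± 0.13 (95% interval -0.36 to 0.22; limma adjusted p 0.86). The GCN5+/- arrays A1, A2, B read 8.02, 7.80 and 8.45, and the GCN5-/- arrays 8.04, 7.97 and 8.05. The GCN5+/- array of line B stood highest and the groups overlapped, so the pairs were 0.02, 0.16 and -0.40. Trim28, the corepressor that ZFP57 recruits, differed by -0.07 ± 0.06 on 1415869_a_at (-0.20 to 0.07; adjusted p 0.652) and by -0.08 ± 0.05 on 1456308_x_at (-0.19 to 0.03; adjusted p 0.475). The Trim28 intervals were among the narrowest: on 1456308_x_at all arrays read between 13.32 and 13.47.

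Of 14 genes of the TRIM28 complex and imprint protection, 1 rose, beside 3.18% of all genes, and none fell, with a median of 0.04. Daxx, a histone chaperone that works with ATRX, rose by 0.42 ± 0.09, from 10.88 ± 0.07 to 11.30 ± 0.11 (SD, n = 3; limma adjusted p 0.0333). Its partner Atrx differed by -0.01 ± 0.13 (adjusted p 0.977), and Setdb1, the histone methyltransferase that TRIM28 brings, by 0.12 ± 0.09 (adjusted p 0.564). The related methyltransferases Ehmt1 and Ehmt2 differed by -0.30 ± 0.09 and -0.19 ± 0.07 (adjusted p 0.113 and 0.203).

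Ctcf, the insulator protein, differed by -0.08 ± 0.11 on 1418330_at (95% interval -0.34 to 0.18; limma adjusted p 0.82) and by -0.22 ± 0.17 on 1449042_at (-0.59 to 0.16; adjusted p 0.604). Both probe sets read lower in GCN5-/- cells in all 3 pairs, with overlapping groups: 10.51, 10.77 and 10.73 against 10.37, 10.71 and 10.69 on the first, and 10.42, 10.07 and 10.10 against 10.32, 9.68 and 9.94 on the second. Without the GCN5-/- array A2, 1449042_at differed by -0.022, and over each array left out in turn by between -0.39 and -0.022. None of 10 CTCF partners and cohesin genes passed the test, with a median of -0.09. The cohesin subunits Rad21, Smc1a and Smc3 differed by -0.01 ± 0.11, -0.13 ± 0.08 and -0.04 ± 0.09.

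Ezh2 read 11.05, 11.10 and 11.10 on GCN5+/- arrays A1, A2, B and 11.09, 11.24 and 11.00 on the GCN5-/- arrays. The difference was 0.03 ± 0.08 (95% interval -0.16 to 0.22; limma adjusted p 0.92), and the pairs had mixed signs. None of 12 PRC2 subunits and demethylases of its mark passed the test, with a median of -0.02. The core subunits Eed and Suz12 differed by 0.04 ± 0.11 and 0.01 ± 0.08, and the demethylase Kdm6a by -0.31 ± 0.10 (adjusted p 0.125).

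**Figure D3:**
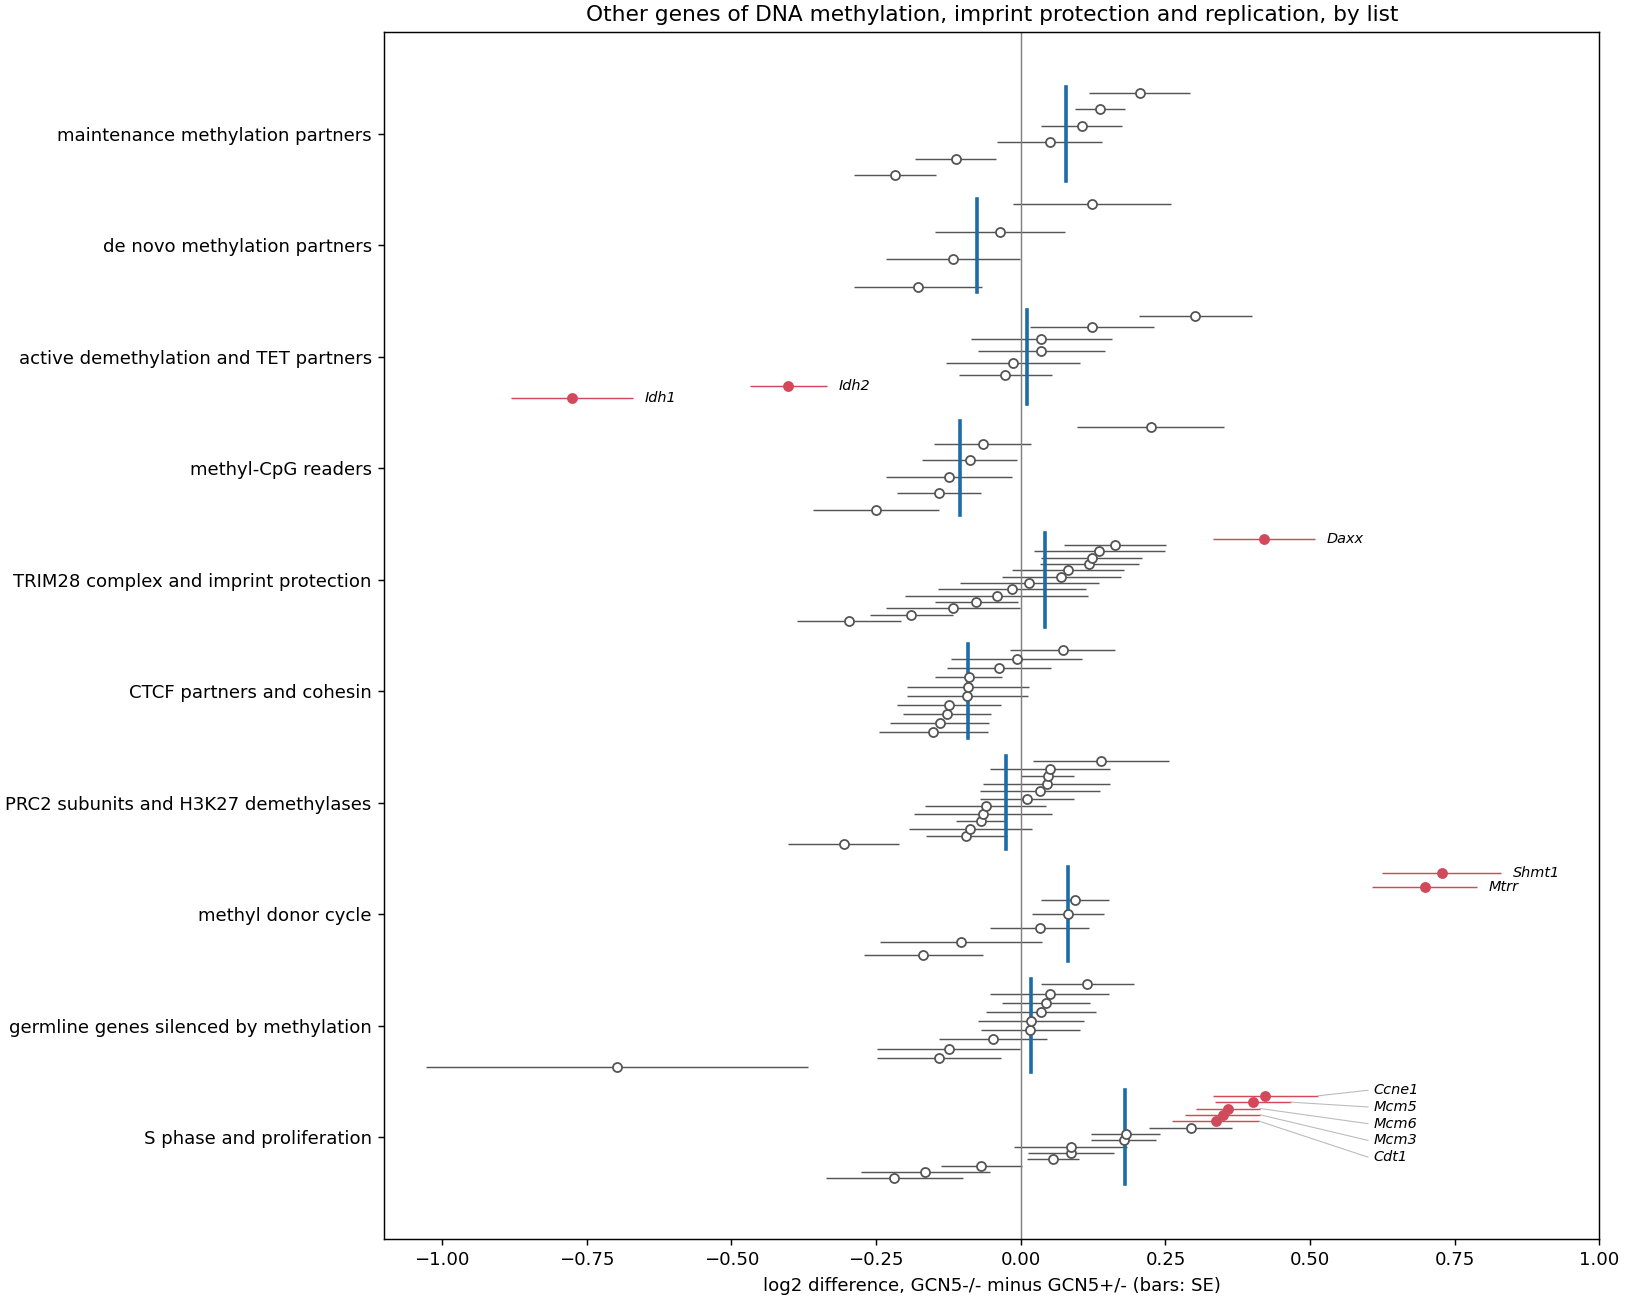
Log2 difference between genotypes with its SE (horizontal axis) for 91 other genes in 10 lists (vertical axis), with 1 probe set per gene, called genes in red with their names and a blue line at each list's median. The 10 called genes are Idh1 and Idh2 on the left and Daxx, Mtrr, Shmt1, Mcm3, Mcm5, Mcm6, Ccne1 and Cdt1 on the right.

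The methyl groups come from the folate and methionine cycles, where 2 of 7 genes rose, beside 3.18% of all genes, and none fell, with a median of 0.08. Mtrr, which reactivates methionine synthase, rose by 0.70 ± 0.09, from 10.22 ± 0.13 to 10.92 ± 0.03 (SD, n = 3; limma adjusted p 0.0048). Shmt1, a serine hydroxymethyltransferase that feeds folate with one-carbon units, rose by 0.73 ± 0.10 on 1425179_at, from 9.75 ± 0.28 to 10.48 ± 0.15 (adjusted p 0.00691), and its other 3 probe sets rose by 0.45 to 0.74. Mtr, methionine synthase itself, differed by -0.17 ± 0.10 (adjusted p 0.477), and Ahcy, which clears the product of methylation, by 0.08 ± 0.06 (adjusted p 0.595). None of 6 readers of methylated CG passed the test, with a median of -0.11. Over all 10 lists, 8 of 91 genes rose and 2 fell (11.0%, beside 5.97% of all genes by 1 probe set each, with a median of 0.01). The lists were chosen with earlier results of these data known, so this share is not an independent finding. The genes called depended on single arrays: 3 were called without GCN5+/- replicate A1, 5 without A2, and 6 and 3 without GCN5-/- replicates A1 and A2. Of 16 alternatives, Mtrr was called in 14, Idh1 and Shmt1 in 13, Idh2 and Mcm6 in 10, Mcm5 in 9, Daxx and Mcm3 in 8, Ccne1 in 6 and Cdt1 in 5, with the direction kept in every one. None of these genes was called when the line A duplicates were averaged or when the line term was left out. The alternatives are not separate checks: those without a line B array and with line A alone rest on the same 4 arrays. Among the scaling alternatives, Ccne1 lost its call with quantile normalization (limma adjusted p 0.0501) and Cdt1 with median centring (0.058).

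**Figure D4:**
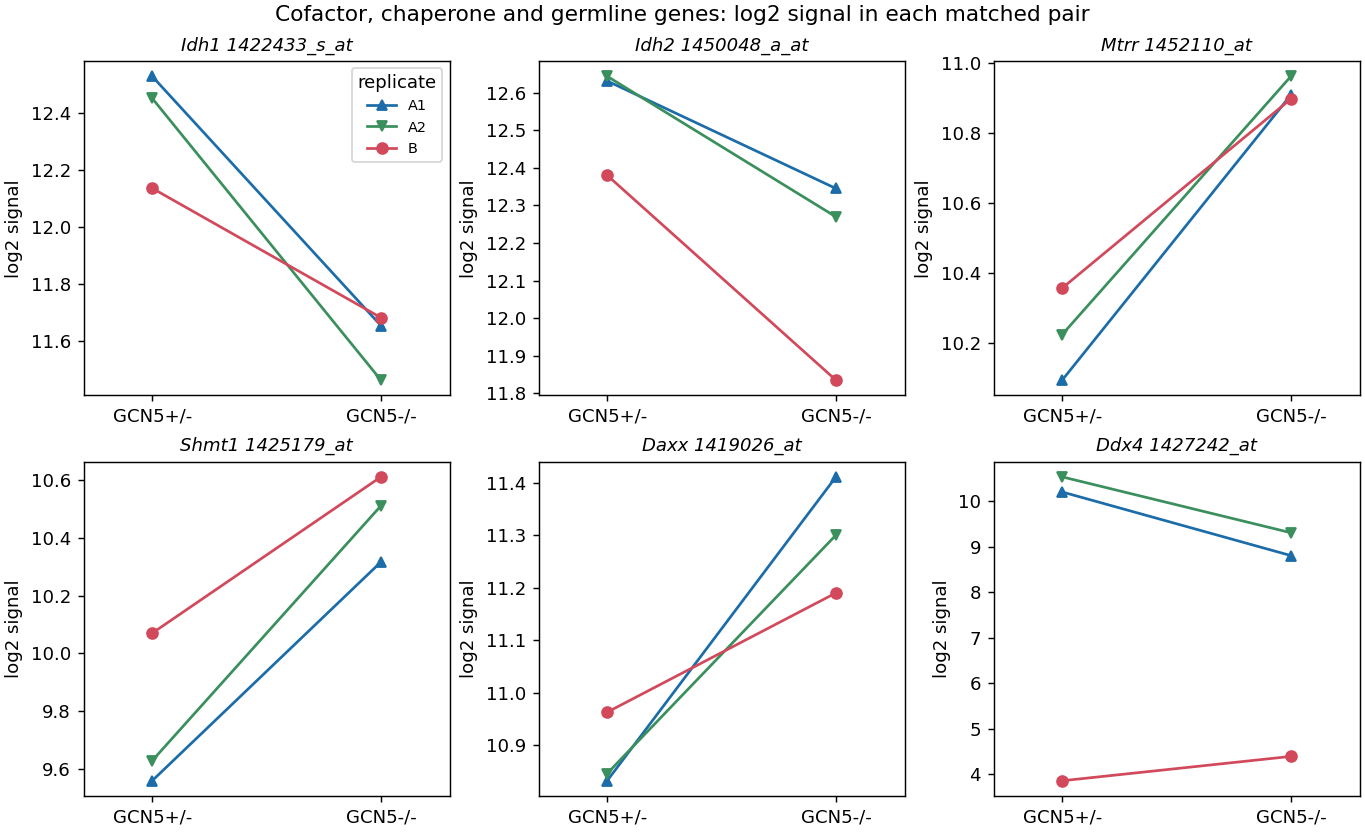
Log2 signal (vertical axes) in GCN5+/- and GCN5-/- cells (horizontal axes) of 6 genes around the methylation enzymes, with 1 line per matched pair. Idh1 and Idh2 are lower and Mtrr, Shmt1 and Daxx higher in GCN5-/- cells in all pairs, and Ddx4 lies near 4 in line B and near 9 to 10 in line A.

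Between the lines, 1 of the 23 probe sets differed (4.35%, beside 14.1% of all probe sets, 7.24% higher and 6.89% lower in line B): Tet1 1455425_at was higher in line B by 0.48 ± 0.11 (limma adjusted p 0.0185). That call was lost without either line B array, without the genotype term and with values under 6 set to 6. The floor cannot test the line difference, as only GCN5+/- array B read above 6. The lines did not overlap for 3 of 23 (13%, beside 29.9% of all), which were both Tet2 probe sets, lower in line B by -0.29 ± 0.13 and -0.27 ± 0.14, and Zfp57, higher by 0.29 ± 0.14 (adjusted p 0.197, 0.286 and 0.224). The remaining members differed between lines by between -0.26 and 0.22. The genotype effect was not called as different between the lines for any of the 23 probe sets, beside 0.0600% of all. The lowest limma adjusted p was 0.818. None of the 23 reached an unadjusted p under 0.05 in that fit, beside 2853 of all 45037 probe sets.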

How the data were processed

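The deposited table held log2 signals per probe set of 6 arrays from 3.13 to 15.2, a range that gave the scale. MAS5 (6 samples) and Partek (1 sample) stand in the submitters' processing notes without a role. How signals were normalized or background-corrected is not given in the sources used here. Scaling between arrays would remove a change shared by most genes. As the background correction is not known, folds of weak signals may be too small or too large.

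Of 45101 probe sets, 64 controls were left out. The annotation gave 34945 probe sets 1 symbol, 932 several (not named) and 9160 none; 34741 identifiers matched the RefSeq table of GRCm38.p6. The limma package 3.58.1 under R 4.3.3 fitted all 45037 probe sets (lmFit and trended eBayes) with genotype and line as terms, 3 residual degrees of freedom, Benjamini-Hochberg adjustment over all, and calls at an adjusted p under 0.05. The interaction fit had 2 residual degrees of freedom. No level filter was used. The code was tested on simulated data.

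Replicate names pair the arrays by line, which the labels give. Deviations from group means correlated at 0.637 (A1), 0.657 (A2) and 0.804 (B), while crossed A1 and A2 arrays gave 0.430 and 0.348. Each group mean spans both lines, so all these values hold the line difference. Within line A the matched arrays correlated more than the crossed ones. The main fit has a line term only and does not use that pairing, which the replicate block among the alternatives does. No 2 arrays were copies.

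Named genes were all probe sets of the 10 genes and of Kat2a and Kat2b, called genes of 10 lists (1 probe set per gene, the highest mean signal), up to 3 further genes per list by smallest p, and others as examples of a role, chosen after values were seen. Members and lists were chosen with earlier results of these data known. Of 99 list genes, 91 were tested and the rest are not analysed here. The number of arrays limits the precision.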

Additional observations from a re-analysis of the deposited data

How the results depend on the processing

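The count of 2012 probe sets called for genotype was 3 with no line term, 201 with line as a random block, 410 with line A duplicates averaged and 1329 with values under 6 set to 6 (probe sets at that floor on every array left out, a step added after the data were seen), and 549 to 2224 without 1 array. With a replicate block it was 2291. Of the 23 member probe sets 1 was called, and 1 with the replicate block; 0 with no line term, the random block, the floor or a filter at the 40th percentile, which leaves out all Tet1 probe sets; 2 with line A arrays only, and 1 to 2 without 1 array. Line calls went from 6361 to 2956 with no genotype term and to 3016 to 5398 without 1 array; the 1 member call was 0 with no genotype term, the filter or the floor, and 0 to 1 without 1 array. The 10 list genes called were 0 with no line term or averaged duplicates, 1 with the random block and 3 without the variance trend. They were 9 with the replicate block and 3 to 13 without 1 array. Over every probe set of the list genes 19 of 244 were called, beside 4.47% of all probe sets. With probe sets averaged per gene, an addition, 0 member genes were called. Of 363 member genotype values under alternatives, 347 kept direction and side of the threshold and 10, of 6 probe sets, changed sign, none of them called: Zfp57 was 0.090 with line A only and Ezh2 -0.0018 with averaged duplicates. Without 1 array, genotype ranges were -0.32 to 0.011 (Dnmt3a 1423066_at), -0.049 to 0.21 (Tet2 1455300_at), -0.17 to 0.028 (Tet3), -0.18 to 0.090 (Zfp57), -0.17 to 0.025 (Ctcf 1418330_at) and -0.031 to 0.092 (Ezh2). Line ranges were -0.38 to 0.11 and -0.53 to 0.018 (Dnmt3a 1423063_at and 1460324_at), -0.079 to 0.051 (Dnmt3b 1449052_a_at), -0.17 to 0.35 (Tet1 1419896_at), -0.070 to 0.024 (Trim28 1415869_a_at), -0.25 to 0.030 (Ctcf 1449042_at) and -0.16 to 0.026 (Ezh2). The interaction called 0 members in each fit run; no such fit was possible without a line B array. Weak Tet1 signals limit what its fold shows.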

Other observations

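Of 10 germline genes that DNA methylation is known to silence in somatic cells, none passed the test between genotypes, with a median of 0.02, and 8 lay below the 40th percentile of mean signal. Between the lines 1 of the 10, by 1 probe set per gene, was called, lower in line B, beside 14.1% of all probe sets. The median line difference of the list was 0.05. The called gene was Ddx4, a germ cell RNA helicase named here after its values were seen, on probe set 1427242_at. Its log2 signal was 9.71 ± 0.80 (SD, n = 4) in line A and 4.12 ± 0.38 (SD, n = 2) in line B. Line B minus line A was -5.60 ± 0.35 (SE; limma adjusted p 1.8e-05). Between genotypes it differed by -0.70 ± 0.33 (adjusted p 0.328), with -1.40, -1.23 and 0.54 in pairs A1, A2 and B. Within line A it fell by 1.31 ± 0.19 (limma adjusted p 0.00721), and the difference of the genotype effect between lines was 1.85 ± 0.34 (adjusted p 0.142; unadjusted p 0.000474 in the same limma fit).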
